A study of Rattus norvegicus with 32 samples.

Results

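The 10 genes described here are imprinted or fetally expressed genes of the liver: H19, Afp, Gpc3, Dlk1, Igf2, Grb10, Cdkn1c, Plagl1, Mest and Peg3. They were taken by symbol from the deposited table of read counts, which lists 17327 genes, and all 10 have a row in it. A total of 9 of them passed the filter on low counts. Dlk1 did not, and is given by its reads.

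RNA was sequenced from the livers of Charles River Sprague Dawley rats, with 4 libraries in each of 8 groups and 32 in all. Knockout (KO) animals carry a CRISPR/Cas9 lesion of Serpina6, which encodes corticosteroid-binding globulin (CBG), the plasma carrier of glucocorticoids. Wild-type (WT) animals are Cbg+/+ and KO animals Cbg-/-. The groups were WT females, KO females, WT males and KO males at 30 days of age, and the same 4 at 60 days, all under basal conditions and with no treatment named. The labels do not say how many founder lines or litters the animals came from, so the p-values measure the spread between these libraries.

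Imprinted genes are expressed from only the maternal or only the paternal copy, and many of them set the rate of growth before birth. In the liver of rodents, H19, Igf2, Afp, Dlk1 and Gpc3 are abundant in the fetus and are shut down after birth, which is why they serve as markers of hepatoblasts and of some liver tumours. The imprinted genes measured here are known from mouse to share a postnatal fall in several organs. The counts do not separate the parental copies, so imprinting itself was not measured.

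The libraries held 12951969 to 21954929 reads in genes. Those of 30 days held at least 16806943 and those of 60 days at most 17133332, and the title form also differs between the ages. Age and any run difference cannot be told apart, and depth goes with both. With counts thinned to the smallest library, no age call of the set was gained or lost. The only call of the set lost was that of Igf2 between the sexes in 60-day KO (-0.71, edgeR adjusted p = 0.0772). Values are in CPM, reads scaled to a library of fixed size after normalisation, and log2 fold changes are given ± SE. Unless another tool is named, adjusted p-values are from edgeR's quasi-likelihood test with Benjamini-Hochberg adjustment over 11002 genes, with 0.05 as the threshold. Serpina6 followed the labels in every library: the highest KO library was at 131 CPM and the lowest WT library at 421 CPM. Summed markers of hepatocytes were between 141000 and 219000 CPM in every library. The 60-day KO female replicate 1 also held retina transcripts: 13 retina markers summed to 2050 CPM there, against 4.88 to 10.9 CPM in the other 3 libraries of its group and at most 9.83 CPM elsewhere. Pancreas markers (7, of which Prss1 and Pnlip were at 0 in every group) summed to 36.1 to 223 CPM in 60-day WT females, 8.06 to 50.1 CPM in 60-day KO females and at most 20.4 CPM elsewhere; their part in the results for those groups was not tested. Results that involve the library with retina transcripts are also given without it where a call of the set was lost, and for some others that moved.

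**Figure D1:**
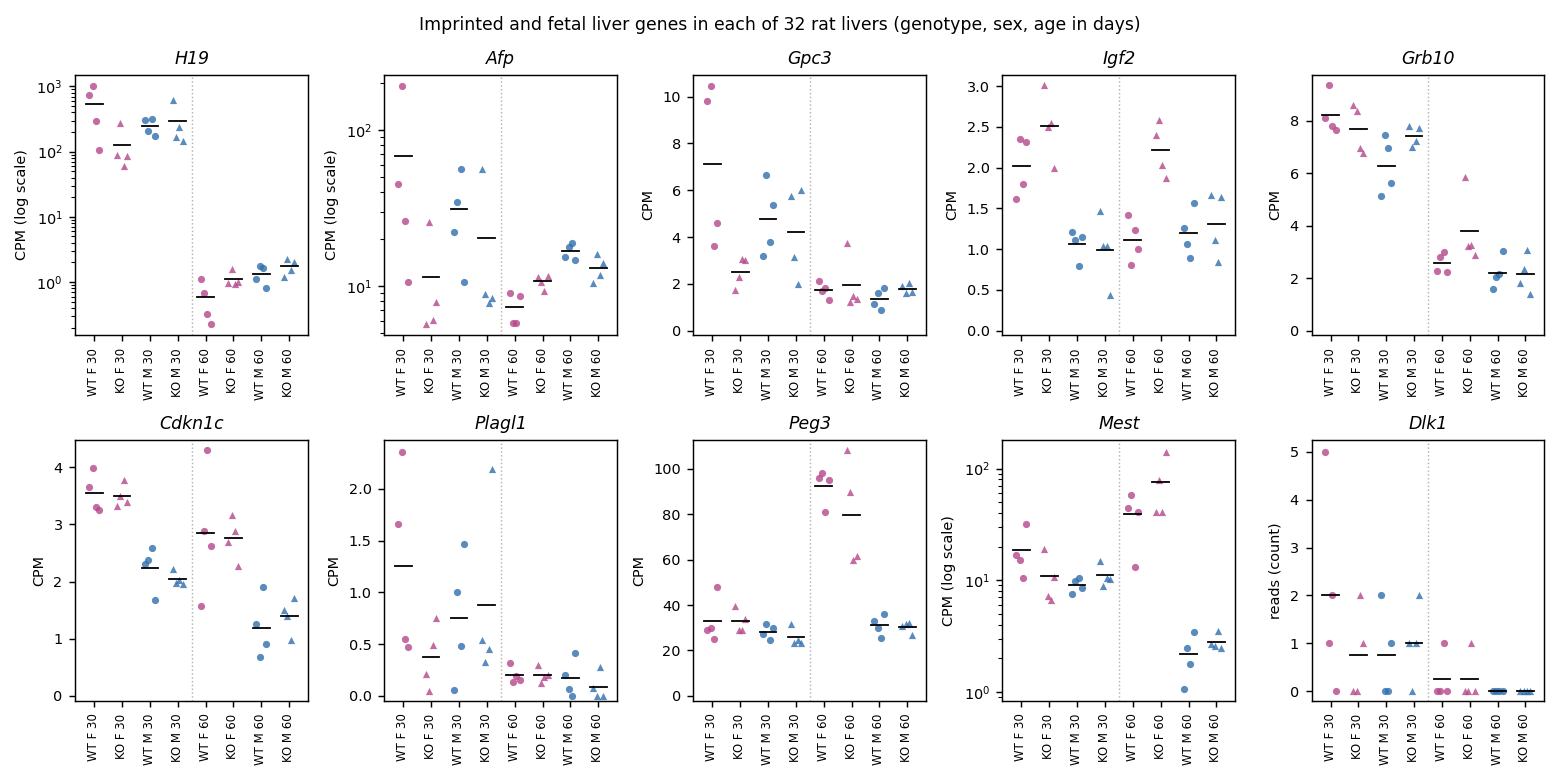
Level of each of the 10 genes in the 32 livers, by genotype (WT, KO), sex (F, M) and age in days; circles are WT, triangles KO, and bars the group means of 4 libraries. The y axes show CPM (log scale for H19, Afp and Mest) and, for Dlk1, reads; H19 is at 59.2 CPM or more in all libraries left of the dotted line (30 days) and at 2.29 CPM or less in all those right of it (60 days).

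From 30 to 60 days, H19 fell in each of the 4 combinations of genotype and sex, and so did Grb10. Gpc3 fell in 3 of them, Plagl1 in 2 and Afp, Igf2 and Cdkn1c in 1 each. Peg3 and Mest went the other way in females: both rose there, while in males Mest fell and Peg3 did not pass the test. In WT females, 2 genes of the set rose and 6 fell, where 16% and 17.1% of all genes tested rose and fell. In KO females 2 rose and 2 fell, against 10.6% and 12.1% of all genes. No gene of the set rose in males, where 15.7% (WT) and 14% (KO) of all genes did. In males 5 fell in each genotype, against 15.8% of all genes in WT and 14.5% in KO. The median log2 fold change of the 9 genes was -1.66 in WT females, -0.34 in KO females, -1.52 in WT males and -1.22 in KO males, beside medians of 0.01, 0.00, -0.01 and -0.01 over all genes. Of all genes called, 48.3% rose in WT females, 46.9% in KO females, 49.8% in WT males and 49.2% in KO males. With library totals as the only scaling these shares were 27.5%, 19.1%, 21.3% and 15.7%, and the medians of all genes moved to -0.11, -0.16, -0.17 and -0.21, while with upper-quartile scaling the shares were 36.6% in WT females and 39% in WT males. No age change called for a gene of the set turned its direction under either.

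**Figure D2:**
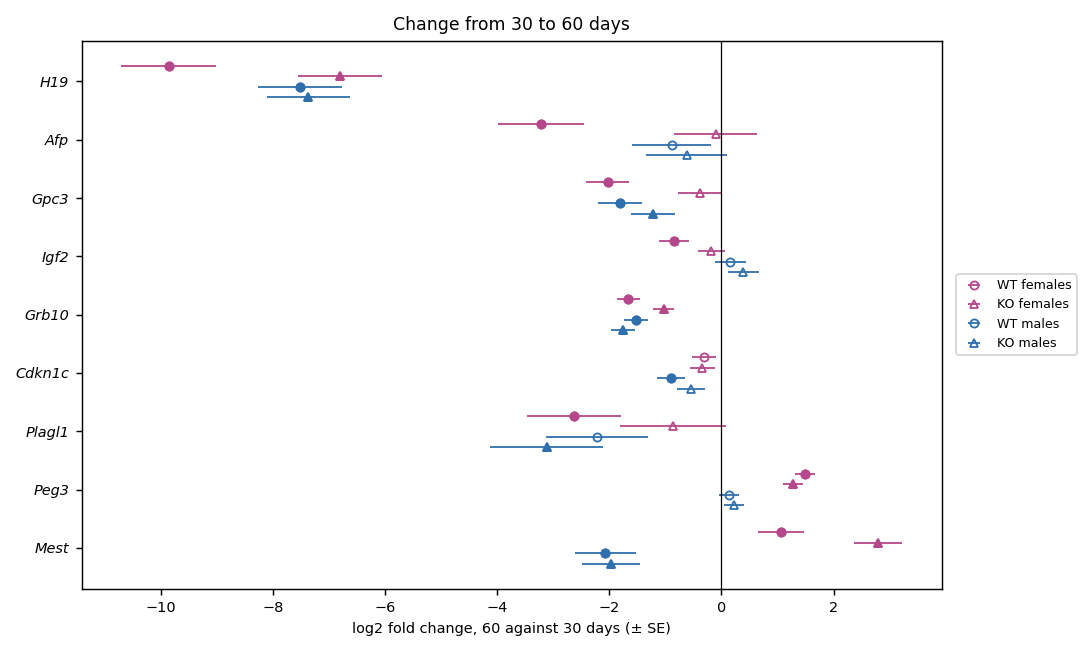
Log2 fold change from 30 to 60 days (x axis, ± SE) of the 9 genes tested (y axis) in WT and KO females and males, from edgeR; filled points passed the adjusted threshold of 0.05. H19 lies between -9.86 and -6.81 in the 4 comparisons, and Mest lies right of 0 in females and left of 0 in males.

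H19 is a maternally expressed long noncoding RNA that is among the most abundant transcripts of fetal liver. It is also the host of miR-675, whose 2 mature products are shown because the age change of H19 is the largest of the set. They are from RefSeq (GRCr8), at chr1:207161800-207161821 and chr1:207161766-207161786 on the minus strand, inside the H19 gene, with the seed (bases 2 to 8) in capitals.
rno-miR-675-5p: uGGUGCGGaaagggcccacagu
rno-miR-675-3p: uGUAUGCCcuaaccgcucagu
The seeds of the arms differ, and neither mature miRNA was measured by these mRNA libraries.

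In 30-day WT females, H19 was at 751, 1002, 296 and 106 CPM. The 30-day KO females were at 88.2, 278, 59.2 and 86.1 CPM. WT males of that age were at 302, 207, 320 and 174 CPM and KO males at 625, 167, 235 and 144 CPM. The 30-day livers thus spread widely, by 9.42-fold within WT females alone, and no group stood apart from all others. At 60 days, WT females were at 1.10, 0.67, 0.33 and 0.23 CPM and KO females at 0.97, 1.61, 0.92 and 1.00 CPM. WT males were then at 1.13, 1.74, 1.65 and 0.82 CPM and KO males at 1.18, 2.29, 1.54 and 2.05 CPM. Every 60-day library was below every 30-day library, and the lowest of them held 3 H19 reads. The fall was -9.86 ± 0.85 in WT females (edgeR adjusted p = 1.98e-09), -6.81 ± 0.75 in KO females (3.15e-07), -7.52 ± 0.75 in WT males (3.02e-08) and -7.37 ± 0.74 in KO males (5.25e-08). These log2 values correspond to 928-fold, 112-fold, 183-fold and 165-fold. The difference between the WT and KO females' falls was 3.05 ± 1.28 and did not pass the test (edgeR adjusted p = 0.203), although DESeq2 called it (adjusted p = 0.0105). In the 30-day females of this comparison, genotype nearly coincides with a number in the library titles, as described below. In whole liver, fewer cells of a type and less RNA per cell cannot be told apart, here and below. Summed markers of some other cell types were also lower at 60 days. Those of stellate cells and fibroblasts (11 of 12 in the table, Col1a2 at 0 in every group) ranged over 1370 to 2220 CPM at 30 days and 756 to 1400 CPM at 60 days. Those of cholangiocytes (6 of 7 in the table) ranged over 28 to 38.8 CPM at 30 days and 14.7 to 24.8 CPM at 60 days. Those of lymphocytes (7 of 8 in the table) went the other way in WT females, from 17.4 to 22.3 CPM at 30 days to 25.8 to 34.4 CPM at 60 days, as did those of Kupffer cells (10), from 498 to 709 CPM to 668 to 1020 CPM, with overlap. The part of these cells in the age changes was not tested.

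Afp encodes alpha-fetoprotein, the main serum protein of the fetus, which is replaced by albumin after birth. Its promoter is shown because it is the only one of the 9 windows found for 8 of the genes that holds both an HNF1 motif and a TATA box. The windows run from 250 bases before to 50 bases after a start site in RefSeq, and that of Afp is at chr14:17875596-17875895 (GRCr8, minus strand), with both motifs in capitals.
Afp: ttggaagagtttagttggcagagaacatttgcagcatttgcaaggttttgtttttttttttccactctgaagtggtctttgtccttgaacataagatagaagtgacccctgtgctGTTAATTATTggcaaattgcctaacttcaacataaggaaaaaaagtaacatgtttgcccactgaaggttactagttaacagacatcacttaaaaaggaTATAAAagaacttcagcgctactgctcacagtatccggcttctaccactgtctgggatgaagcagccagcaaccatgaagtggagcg
Both strands were searched. The HNF1 letters (GTTAAT, any base, ATT) occur in 0.335% of 33469 promoter windows and the TATA letters TATAAA in 14.2%. A CCAAT match on the other strand (CCAAT, in 37.5% of windows) overlaps the end of the HNF1 match. The letters TTCNNNGAA, bound by STAT5 and found in 8.87% of windows, are in none of the 9.

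Afp in 30-day WT females was at 45.3, 190.35, 26.1 and 10.7 CPM, and in 60-day WT females at 9.06, 5.85, 5.80 and 8.69 CPM. The ages did not overlap, and the change of -3.22 ± 0.77 passed the test (edgeR adjusted p = 0.00203). It was lost by a little when the 8 libraries were fitted alone (edgeR adjusted p = 0.0531). KO females were at 5.77, 25.9, 6.08 and 7.98 CPM at 30 days and at 11.4, 10.6, 9.35 and 11.6 CPM at 60 days. These overlapped, with a change of -0.10 ± 0.74 (edgeR adjusted p = 0.948). The 30-day WT males were at 22.3, 34.8, 56.5 and 10.7 CPM and the 60-day ones at 15.3, 17.9, 19.0 and 14.8 CPM. KO males were at 56.2, 8.86, 7.76 and 8.44 CPM at 30 days and at 10.4, 16.1, 11.9 and 14.1 CPM at 60 days. In males the ages overlapped and the changes were -0.89 ± 0.70 in WT and -0.62 ± 0.72 in KO, both short of the threshold (edgeR adjusted p = 0.360 and 0.570). Afp therefore varied by up to 17.9-fold between the 30-day WT females and by 1.56-fold between the 60-day WT females, so the age difference lay in the spread as well as in the level.

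Across the 16 livers of 30 days, H19 and Afp varied together. With each value taken as log2 CPM less its group's mean, Pearson's r was 0.89 (permutation p = 0.00051 within groups, Benjamini-Hochberg adjusted p = 0.00408 over the 8 relations of H19 with the other genes tested). Spearman's rho was 0.79 (permutation p = 0.00187, adjusted p = 0.015). Without the 2 livers farthest from the median of H19, r was 0.85. The 30-day titles end in a number, 1 or 2, whose meaning the labels do not give. In the 8 livers numbered 1, r was 0.90, and in the 8 numbered 2 it was 0.93. For these 2 values the group means taken off were still those over both numbers. A difference between the numbers within a group can therefore enter them, so they do not separate the relation from the number. For Cdkn1c, r was 0.50 (permutation p = 0.0147, adjusted p = 0.059), and for the other 6 genes it was between -0.30 and 0.40 with adjusted p of 0.237 or more. No litter or day of collection is given for these livers.

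**Figure D3:**
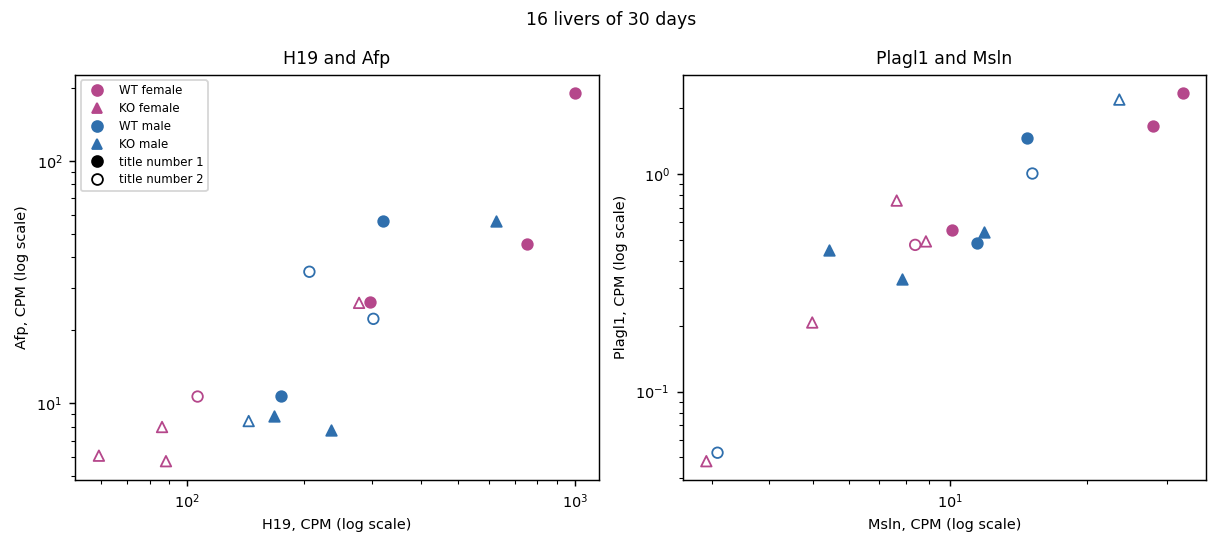
The 16 livers of 30 days, with H19 against Afp on the left and Msln, a mesothelial marker, against Plagl1 on the right (both axes CPM, log scale); colour gives sex, shape genotype, and open points are titles numbered 2. High H19 goes with high Afp in both title numbers, and Plagl1 is lowest in the livers where Msln is lowest.

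Gpc3 encodes glypican 3, an X-linked heparan sulphate proteoglycan of the cell surface that restrains growth and is used as a marker of fetal liver and hepatocellular carcinoma. It was at 9.81, 10.5, 3.60 and 4.62 CPM in 30-day WT females and at 2.13, 1.68, 1.82 and 1.31 CPM in 60-day ones. The 30-day WT males were at 3.20, 6.66, 3.78 and 5.38 CPM and the 60-day ones at 1.13, 1.62, 0.89 and 1.81 CPM. In both WT sexes all 60-day livers were below all 30-day livers, with falls of -2.03 ± 0.38 (edgeR adjusted p = 0.000117) in females and -1.81 ± 0.39 (0.000753) in males. KO males, at 1.97 to 6.0 CPM and then 1.63 to 2.03 CPM, overlapped slightly; the change was -1.22 ± 0.39 (edgeR adjusted p = 0.0178). That call was lost without 30-day KO male replicate 1 (edgeR adjusted p = 0.0656) or replicate 4 (0.0723), and in limma-voom (0.105). KO females were at 1.71, 2.30, 3.04 and 3.02 CPM at 30 days and at 3.75, 1.23, 1.48 and 1.34 CPM at 60 days, where the highest is the library with retina transcripts. Their change was -0.39 ± 0.39 (edgeR adjusted p = 0.523), and -0.90 ± 0.41 without that library (0.130).

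Dlk1 encodes a paternally expressed transmembrane protein of the Notch ligand family that marks hepatoblasts. It was close to the limit of detection: 18 reads were counted over the 16 livers of 30 days, in 10 of them, and 2 reads over the 16 of 60 days, in 2 of them. No library held more than 5. Relative to all reads in genes, the ratio of 60 to 30 days was 0.14, with an exact 95% interval of 0.0158 to 0.585 that covers counting error only. Fitted without a filter, none of the 4 age changes of Dlk1 passed (edgeR adjusted p of 0.232 to 0.707).

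Igf2, the paternally expressed fetal insulin-like growth factor, was low at both ages, at 3.01 CPM or less. WT females fell from 1.61, 2.36, 1.80 and 2.31 CPM at 30 days to 1.42, 0.81, 1.24 and 1.00 CPM at 60 days. The change was -0.85 ± 0.27 (edgeR adjusted p = 0.0135), and it was lost without 60-day WT female replicate 2 (0.0575). KO females were at 3.01, 2.49, 2.55 and 1.99 CPM and then at 2.40, 2.58, 2.03 and 1.87 CPM, with a change of -0.18 ± 0.24 (edgeR adjusted p = 0.653). The 30-day males were at 0.79 to 1.21 CPM in WT and 0.44 to 1.46 CPM in KO, and the changes of 0.16 ± 0.28 and 0.39 ± 0.28 did not pass (edgeR adjusted p = 0.714 and 0.311). At these levels Igf2 rests on 62 to 199 reads summed per group, and reads from its antisense transcript would count with it if strand was ignored, which the sources do not say.

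Grb10 encodes an adaptor that binds the insulin and IGF1 receptors and dampens their signal. Its 30-day livers were at 7.66 to 9.37 CPM in WT females, 6.79 to 8.62 CPM in KO females, 5.14 to 7.46 CPM in WT males and 7.02 to 7.80 CPM in KO males. At 60 days WT females were at 2.28, 2.82, 3.00 and 2.23 CPM, and KO females at 5.85, 3.22, 3.26 and 2.87 CPM. WT males were at 1.59, 2.05, 2.16 and 3.05 CPM and KO males at 1.82, 2.37, 3.08 and 1.39 CPM. The ages did not overlap in any of the 4 combinations. Grb10 fell by 1.66 ± 0.20 in WT females (edgeR adjusted p = 1.6e-07), by 1.03 ± 0.19 in KO females (0.000203), by 1.52 ± 0.21 in WT males (1.49e-06) and by 1.76 ± 0.21 in KO males (1.92e-07). Without the library that holds retina transcripts, the change in KO females was -1.30 ± 0.18 (edgeR adjusted p = 6.64e-06).

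Cdkn1c encodes p57, a maternally expressed inhibitor of cyclin-dependent kinases. Females of 30 days were at 3.25 to 3.98 CPM in WT and 3.33 to 3.77 CPM in KO, above all males of that age, which were at 1.67 to 2.59 CPM and 1.95 to 2.22 CPM. At 60 days WT females were at 1.58, 2.89, 4.30 and 2.61 CPM and WT males at 1.26, 0.68, 1.91 and 0.91 CPM, which overlapped. KO females of 60 days, at 2.27 to 3.16 CPM, were all above KO males, at 0.98 to 1.72 CPM. The 30-day sex differences of -0.66 ± 0.22 in WT and -0.78 ± 0.22 in KO did not pass (edgeR adjusted p = 0.138 and 0.0587), although DESeq2 and limma-voom called that in KO (adjusted p = 0.0135 and 0.0240). The fit of only the 8 libraries compared also called it in KO (edgeR adjusted p = 0.00948), and that of the 16 libraries of 30 days called it in both genotypes (0.0129 in WT and 0.00494 in KO). With age, Cdkn1c fell in WT males (-0.90 ± 0.25, edgeR adjusted p = 0.00635), and the other 3 changes lay between -0.55 and -0.31 with adjusted p of 0.103 or more.

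Plagl1 encodes a paternally expressed zinc finger transcription factor that binds the promoters of other imprinted genes. It was the lowest of the 9 in reads, with 45 at most in a library. In 30-day WT females it was at 1.66, 2.36, 0.55 and 0.47 CPM and in 60-day ones at 0.32, 0.13, 0.20 and 0.15 CPM (-2.63 ± 0.83, edgeR adjusted p = 0.0153). In KO males it was at 0.54, 0.33, 0.45 and 2.20 CPM and then at 0.08, 0, 0.28 and 0 CPM (-3.12 ± 1.00, edgeR adjusted p = 0.0195). Both falls separated the ages without overlap. The KO male call was lost without 30-day replicate 4 (-2.13, edgeR adjusted p = 0.138), 60-day replicate 2 (0.060) or 60-day replicate 4 (0.0567), and the WT female call without 30-day replicate 2 (-2.15, 0.0689). In limma-voom neither passed (adjusted p = 0.0595 in WT females and 0.0625 in KO males). The 3 genes nearest to Plagl1 over the 32 libraries were Msln, Upk1b and Prss12, of which the first pair are markers of mesothelium, the cell layer that covers the liver. Msln was at 28, 32.5, 10.1 and 8.4 CPM in the same order of 30-day WT females. Over all 5 mesothelial markers in the table (of 6 listed, none at 0 in a group), the sums were 31.9 to 90.6 CPM in 30-day and 12.5 to 19.1 CPM in 60-day WT females. In KO males they were 30.0 to 57.5 CPM and 41.5 to 47.2 CPM. Of these markers, Msln and Upk1b, which lie nearest to Plagl1, went the other way in KO males. Their group means there went from 12.2 to 2.84 CPM and from 1.51 to 0.42 CPM. The part of mesothelial cells in the Plagl1 values was not tested.

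Mest and Peg3 are paternally expressed. Mest encodes a protein of the alpha/beta hydrolase family linked to fat storage and growth, and Peg3 a zinc finger protein of growth and maternal behaviour. Their promoter windows are shown with CpG dinucleotides in capitals because these were the only 2 genes of the set that rose with age. Mest is at chr4:60321564-60321863 and Peg3 at chr1:76130744-76131043 (GRCr8, plus strand).
Mest: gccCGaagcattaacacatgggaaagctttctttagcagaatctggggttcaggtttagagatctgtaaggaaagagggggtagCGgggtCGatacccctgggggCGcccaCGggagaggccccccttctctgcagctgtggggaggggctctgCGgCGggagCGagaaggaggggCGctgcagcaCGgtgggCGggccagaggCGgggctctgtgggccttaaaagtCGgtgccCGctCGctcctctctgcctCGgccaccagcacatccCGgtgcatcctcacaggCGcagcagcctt
Peg3: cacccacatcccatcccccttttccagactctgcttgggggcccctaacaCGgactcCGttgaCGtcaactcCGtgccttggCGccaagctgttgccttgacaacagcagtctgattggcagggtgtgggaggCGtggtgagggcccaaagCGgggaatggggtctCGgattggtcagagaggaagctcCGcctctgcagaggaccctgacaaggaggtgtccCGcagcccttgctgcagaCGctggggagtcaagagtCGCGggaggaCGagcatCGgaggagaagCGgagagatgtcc
Mest holds 18 CpG and Peg3 16, where the median of all windows is 7, and 27.5% and 30.5% of windows hold as many or more. The window of Afp holds 3, those of Igf2 hold 19 and 7, and those of Plagl1, Gpc3, Grb10 and Dlk1 hold 27 to 45. The letters GGGGCCCC, bound by PLAGL1, occur once in Peg3 and in 0.858% of all windows. Methylation was not measured.

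Mest was at 16.7, 15.2, 10.5 and 31.8 CPM in 30-day WT females and at 7.50, 9.89, 10.4 and 8.52 CPM in 30-day WT males. In KO animals of that age it was at 18.9, 7.24, 6.62 and 10.7 CPM in females and 15.0, 8.86, 10.4 and 10.2 CPM in males. In 30-day WT every male was below every female, by a small margin, and the difference of -1.03 ± 0.43 did not pass (edgeR adjusted p = 0.290), while in KO the sexes overlapped. At 60 days WT females were at 44.3, 57.3, 13.1 and 40.6 CPM, and WT males at 1.06, 2.49, 1.78 and 3.46 CPM. KO females were at 40.4, 79.7, 40.7 and 142 CPM, and KO males at 2.68, 2.59, 3.5 and 2.46 CPM. Every 60-day female was above every 60-day male, with differences of -4.17 ± 0.53 (males against females, edgeR adjusted p = 1.05e-06) in WT and -4.74 ± 0.52 (1.57e-07) in KO, or 17.9-fold and 26.8-fold. Males fell with age by 2.07 ± 0.54 (WT, edgeR adjusted p = 0.00481) and by 1.97 ± 0.52 (KO, 0.00572), neither of which passed in limma-voom (adjusted p = 0.0585 and 0.0723). KO females rose by 2.80 ± 0.43 (edgeR adjusted p = 2.71e-05), and by 3.01 ± 0.44 without the library that holds retina transcripts (1.86e-05). WT females rose by 1.06 ± 0.41, which passed only narrowly (edgeR adjusted p = 0.0493): the ages overlapped, and the call was lost in 25 of the 32 fits that left out 1 library, most of all without 60-day WT female replicate 2 (0.81, edgeR adjusted p = 0.174). The test of the difference itself, the age change of males less that of females, gave -3.14 ± 0.68 in WT (edgeR adjusted p = 0.00381) and -4.77 ± 0.67 in KO (7.34e-05).

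Peg3 was at 29, 29.8, 25.0 and 48.0 CPM in 30-day WT females and at 95.8, 98.2, 81.1 and 95.1 CPM in 60-day ones. KO females were at 39.7, 29, 28.8 and 33.9 CPM and then at 108, 89.6, 59.7 and 61.5 CPM. Males of both genotypes and ages stayed between 23.2 and 36.2 CPM. The rise was 1.49 ± 0.18 in WT females (edgeR adjusted p = 1.59e-07) and 1.28 ± 0.18 in KO females (3.81e-06), against 0.14 ± 0.18 (0.605) and 0.23 ± 0.18 (0.357) in males. At 60 days males were lower by -1.57 ± 0.18 in WT (edgeR adjusted p = 1.09e-07) and -1.40 ± 0.18 in KO (1.17e-06), with no overlap. The 60-day KO female at 108 CPM is the library that holds retina transcripts. Without it, the rise in KO females was 1.10 ± 0.17 (edgeR adjusted p = 2.73e-05) and the 60-day KO sex difference -1.22 ± 0.17 (8.24e-06). The age change of males less that of females was -1.35 ± 0.25 in WT (edgeR adjusted p = 0.000679) and -1.05 ± 0.25 in KO (0.0124), and without the library that holds retina transcripts the latter was -0.86 ± 0.24 (0.0380). The comparisons of sex and of age share libraries, so these values are not independent of each other. Age by sex was called for Mest and Peg3 alone among the 9 genes, in both genotypes by edgeR, where it was called for 9% of all genes in WT and 4.69% in KO. DESeq2 also called H19 in WT (2.33, adjusted p = 0.0455).

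**Figure D4:**
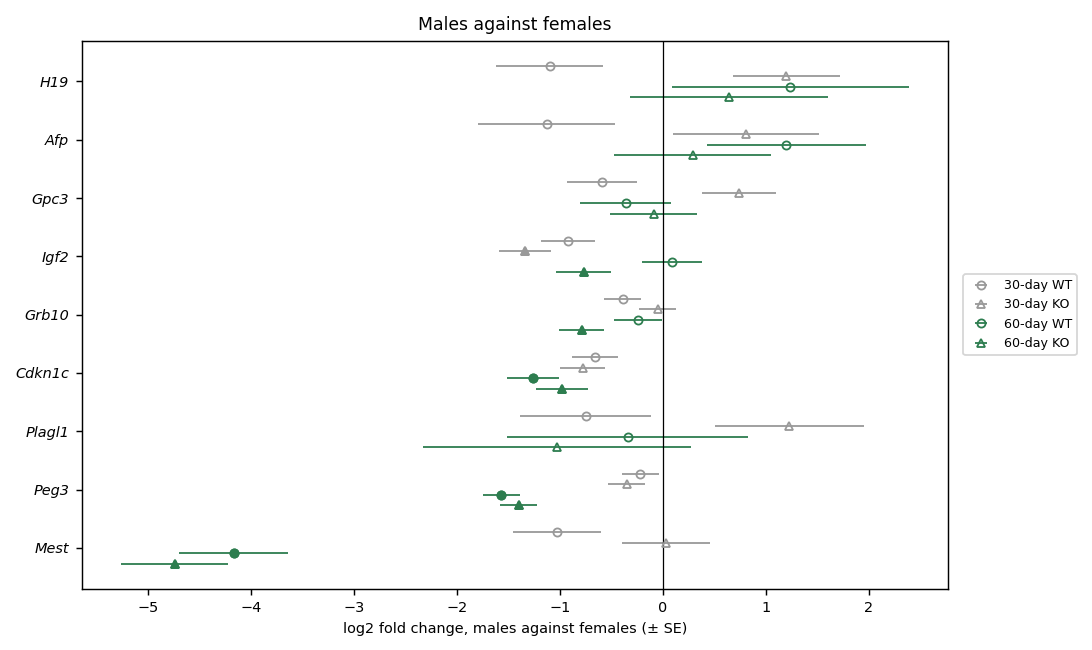
Log2 fold change of males against females (x axis, ± SE) of the 9 genes tested (y axis) at 30 days (grey) and 60 days (green) in WT (circles) and KO (triangles), from edgeR; filled points passed the adjusted threshold of 0.05. Mest and Peg3 lie between -4.74 and -1.40 at 60 days, with filled points, and between -1.03 and 0.03 at 30 days, with open ones.

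Over the set, males of 60 days were lower in 3 genes in WT (Peg3, Cdkn1c, Mest) and 5 in KO (with Igf2 and Grb10 in addition), against 12.7% and 8.89% of all genes. No gene passed as higher in males at either age in edgeR over the 32 libraries. For Cdkn1c the 60-day differences were -1.26 ± 0.25 (edgeR adjusted p = 0.000317) in WT and -0.98 ± 0.25 (0.00502) in KO. Those of Igf2 and Grb10 in KO were -0.77 ± 0.27 (edgeR adjusted p = 0.0425) and -0.79 ± 0.22 (0.0108). Both calls were fragile. That of Igf2 was lost without KO female replicate 1, which holds retina transcripts (-0.73, edgeR adjusted p = 0.0843), replicate 2 (-0.68, 0.110) or replicate 3 (-0.81, 0.0522), and without KO male replicate 2 (-0.70, 0.110) or replicate 3 (-0.60, 0.147). That of Grb10 was lost without KO female replicate 1 (-0.51, edgeR adjusted p = 0.100) or KO male replicate 4 (-0.63, 0.0563). Neither passed when only the 8 libraries compared were fitted (edgeR adjusted p = 0.0873 and 0.110). At 30 days, Igf2 was lower in KO males than in KO females (-1.34 ± 0.25, edgeR adjusted p = 0.00241), the only one of the 9, against 1.38% of all genes. All 4 of these females have titles numbered 2 and 3 of the 4 males titles numbered 1, and with that number as a covariate in the 16 libraries of 30 days, an alternative chosen after the values had been seen, the difference did not pass (-1.42 ± 0.34, edgeR adjusted p = 0.0600). In 30-day WT, 0 of 9 passed in edgeR, where 0.991% of all genes were lower. An unadjusted p under 0.05 was found for 5 of the 9, against 12.9% of all genes in either direction. DESeq2, which called 3.07% of all genes, and limma-voom each called 1, Igf2 (adjusted p = 0.0184 and 0.0493). In that comparison 4 of the 9, Igf2, Cdkn1c, Grb10 and Mest, were lower in every male than in any female, against 4.34% of all genes. At 60 days in WT, Afp was higher in every male than in any female, as 11.8% of all genes were. Its difference of 1.20 ± 0.77 did not pass (edgeR adjusted p = 0.274). It passed when only the 8 libraries compared were fitted (1.20, edgeR adjusted p = 0.000484), and with the 16 libraries of 60 days, an alternative chosen after the values had been seen (1.20, 3.97e-05). H19 passed as higher in WT males in that last fit as well (1.22, edgeR adjusted p = 0.0382). Over the 32 libraries its difference was 1.24 ± 1.15 (edgeR adjusted p = 0.469), and the sexes overlapped.

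The knockout was compared with WT in each sex and age, the contrast the series was built for. Among the 9 genes, edgeR called only Igf2 in 60-day females. The comparisons that did not pass do not show the absence of an effect. In 30-day females, 0 of 9 genes passed in edgeR, against 0.3% of all genes. An unadjusted p under 0.05 was found for 4 of the 9, against 10.7% of all genes. Limma-voom called 0, and DESeq2 called 3, against 0.838% of all genes in DESeq2. Those 3 were Afp (-2.57 ± 0.72 in edgeR, adjusted p = 0.142; DESeq2 0.0202), H19 (-2.08 ± 0.53, 0.103; DESeq2 0.0221) and Gpc3 (-1.50 ± 0.35, 0.0575; DESeq2 0.0106). Gpc3 was lower in every KO female than in any WT female, as 3.92% of all genes were. Without 30-day WT female replicate 4, edgeR also called all 3, at -2.92 (adjusted p = 0.0499), -2.42 (0.0232) and -1.66 (0.0299). Gpc3 alone passed without WT female replicate 3 (-1.72, edgeR adjusted p = 0.0266), and also without any 1 of 3 libraries of other groups (-1.50, 0.0278 to 0.0490). All 4 KO females of 30 days have titles numbered 2, whereas 3 of the 4 WT females are numbered 1. The WT female numbered 2 is replicate 4, and it was at 106 CPM of H19, within the KO range of 59.2 to 278 CPM. Leaving it out, as above, makes genotype and title number coincide fully in these females, so those calls cannot separate them. With that number as a covariate in the 16 livers of 30 days, the differences were -1.36 ± 1.23 for Afp, -1.11 ± 0.87 for H19 and -1.56 ± 0.51 for Gpc3 (edgeR adjusted p = 0.694, 0.641 and 0.236). In 30-day females, genotype and title number can hardly be told apart. Stellate cell and fibroblast markers also summed lower there, to 1450 to 1690 CPM in KO against 1700 to 2220 CPM in WT, and mesothelial markers to 19.0 to 40.9 CPM against 31.9 to 90.6 CPM. Their part was not tested.

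In 60-day females, 1 of 9 passed, against 6.77% of all genes: Igf2 was higher in KO, at 1.87 to 2.58 CPM against 0.81 to 1.42 CPM (0.99 ± 0.27, edgeR adjusted p = 0.0237). The groups did not overlap, nor did those of Afp (9.35 to 11.6 CPM in KO against 5.80 to 9.06 CPM), as for 4.48% of all genes in that direction. The Igf2 call was lost without KO replicate 1, which holds retina transcripts (0.95, edgeR adjusted p = 0.0589), KO replicate 2 (0.91, 0.0558), WT replicate 2 (0.86, 0.0941) or WT replicate 4 (0.95, 0.0696), and when the 8 libraries were fitted alone (0.99, 0.108). In males, 0 of 9 passed at 30 days and 0 of 9 at 60 days, in edgeR, DESeq2 and limma-voom alike, with 0 at an unadjusted p under 0.05 at either age; of all genes, 0.0545% and 0.209% passed in edgeR. The 95% interval of the 60-day male difference was -1.55 to 2.30 for H19 and -0.49 to 0.49 for Grb10, and changes within those bounds are not excluded.

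**Figure D5:**
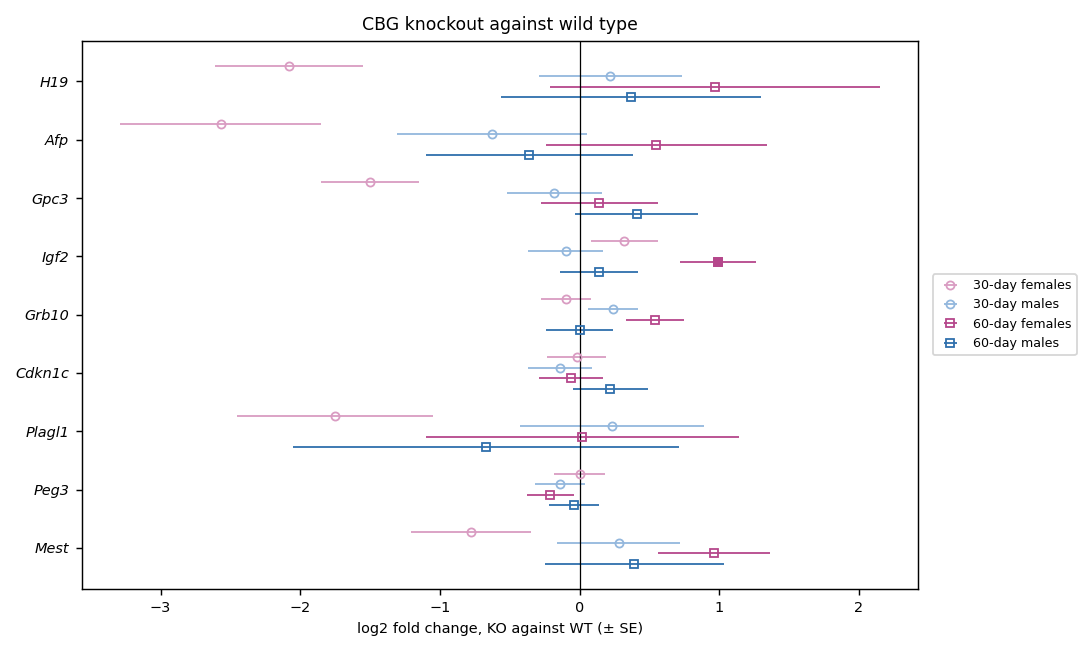
Log2 fold change of KO against WT (x axis, ± SE) of the 9 genes tested (y axis) at 30 days (circles) and 60 days (squares) in females and males, from edgeR; the filled point passed the adjusted threshold of 0.05. Igf2 in 60-day females (0.99) is the filled one. Afp, H19 and Gpc3 in 30-day females lie at -2.57, -2.08 and -1.50, with SE of 0.72, 0.53 and 0.35 and open points.

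Tests of whether genotype changed another difference gave no call among the 9 genes in edgeR. For age by genotype in females, where edgeR called 2.96% of all genes, 5 of the 9 had an unadjusted p under 0.05, against 17.6% of all genes. Limma-voom called 0, and DESeq2 called 3 (H19, Afp and Gpc3), against 5.32% of all genes in DESeq2. For age by genotype in males the counts were 0, 0 and 0, and 0.00909% of all genes passed. For sex by genotype, 3 genes at 30 days and 1 at 60 days had an unadjusted p under 0.05, against 5.51% and 10.6% of all genes. DESeq2 and limma-voom called 0, and 0% and 0.136% of all genes passed in edgeR. Age by genotype in females and sex by genotype at 30 days both include the 30-day females. In those females, genotype and title number can hardly be told apart. Age by genotype for Gpc3 in females was 1.64 ± 0.55 (edgeR adjusted p = 0.0931), and 1.13 ± 0.55 without the library that holds retina transcripts (0.317). For H19 and Afp it was 3.10 ± 1.38 and 3.09 ± 1.12 without that library.

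The wider pathways were described from lists, with the age change in WT females as the example. The age counts below stand beside 16% of all genes that rose and 17.1% that fell in WT females. These shares were 10.6% and 12.1% in KO females, 15.7% and 15.8% in WT males, and 14% and 14.5% in KO males. Of 27 tested regulators linked to postnatal silencing of fetal liver genes, 9 rose and 3 fell (median 0.23, beside 0.01 for all genes). Zbtb20 and Zhx2, repressors of Afp in mouse liver, both rose, from 6.71 ± 0.08 to 19.2 ± 2.29 CPM (SD, n = 4; 1.52 ± 0.13, edgeR adjusted p = 2.14e-10) and from 6.46 ± 0.60 to 11.6 ± 2.34 CPM (0.84 ± 0.14, 4.04e-05). Zbtb20 rose in the other 3 combinations as well, by 1.07 to 1.58 with edgeR adjusted p of 1.04e-07 or less. Zhx2 was also higher at 60 days there, at 5.4 to 6.76 and then 11.0 to 13.3 CPM in KO females. WT males were at 6.99 to 9.66 and then 10.3 to 16.4 CPM of Zhx2, and KO males at 6.96 to 7.61 and then 8.72 to 13.0 CPM. In those 3 combinations the change of Afp did not pass (-0.10 ± 0.74 in KO females, -0.89 ± 0.70 in WT males, -0.62 ± 0.72 in KO males). The part of Zbtb20 and Zhx2 in the Afp values was not tested. Uhrf1 and Dnmt1, which maintain DNA methylation at replication, fell by 4.48 ± 0.44 and by 0.73 ± 0.09. In KO females 3 of these 27 rose and 5 fell, in WT males 8 and 5, and in KO males 5 and 5.

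Cell cycle genes fell together with H19: 30 of 30 fell in WT females (median -3.88) and 29 of 30 in each of the other combinations (medians -3.40 to -2.58). Tk1, a thymidine kinase of DNA synthesis, went from 47.1 ± 11.9 to 7.87 ± 0.75 CPM (SD, n = 4; -2.58 ± 0.16, edgeR adjusted p = 1.32e-12), and Top2a, a topoisomerase of dividing cells, from 53.3 ± 22 to 1.42 ± 0.87 CPM. Among 5 other CDK inhibitors tested, 1 rose and 3 fell in WT females, against 16% and 17.1% of all genes. Cdkn2c fell by 2.92 ± 0.25 and Cdkn3, a phosphatase of dividing cells, by 5.51 ± 0.55.

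Of 22 tested genes of IGF and insulin signalling, 6 rose and 5 fell in WT females (median -0.02), against 16% and 17.1% of all genes. Ghr, the growth hormone receptor, rose from 366 ± 105 to 753 ± 59.1 CPM (SD, n = 4; 1.04 ± 0.12, edgeR adjusted p = 8.34e-08), and Igf2bp2, which binds Igf2 mRNA, fell from 2.60 ± 0.38 to 0.48 ± 0.36 CPM (-2.38 ± 0.35, 3.81e-06). At 60 days, 2 of the 22 were higher and 6 lower in WT males than in WT females, against 13.7% and 12.7% of all genes. Igfbp2, an IGF binding protein, was at 1.16 ± 0.23 CPM in males and 33.1 ± 13.9 CPM in females (-4.81 ± 0.69, edgeR adjusted p = 6.58e-06). In KO the difference was -4.25 ± 0.67 (3.84e-05).

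Of 30 other imprinted genes tested, 9 rose and 11 fell in WT females (median -0.06). Pon2 rose by 0.43 ± 0.05 and Sfmbt2, a Polycomb-group gene, fell from 2.87 ± 1.03 to 0.92 ± 0.08 CPM (SD, n = 4; -1.65 ± 0.29, edgeR adjusted p = 5.38e-05). At 60 days in WT, 6 of the 30 were higher and 2 lower in males, against 13.7% and 12.7% of all genes. Klf14, a transcription factor gene of the Mest region, had no read in any of the 60-day males and was at 0.39, 0.81, 0.59 and 1.31 CPM in WT females and at 0.38, 0.65, 0.74 and 0.40 CPM in KO females. In the knockout comparison at 60 days in females, 3 of the 30 were higher, against 3.48% of all genes: Inpp5f, Ndn and the row that matches Meg3. For Ndn the 4 KO females were at 3.75, 0.58, 0.49 and 0.13 CPM, with the library that holds retina transcripts highest, and without it the difference fell from 2.23 to 0.68 (edgeR adjusted p = 0.526). For Meg3 it fell from 4.93 to 1.64 (0.555), and for Inpp5f from 0.44 to 0.42 (0.0872).

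Of 18 other fetal liver and hepatoblast genes tested, 2 rose and 9 fell in WT females (median -0.65), against 16% and 17.1% of all genes. In KO females 2 rose and 4 fell, and in males of each genotype 0 rose and 9 fell. Sox4, a progenitor transcription factor, fell from 11.5 ± 2.18 to 4.11 ± 0.93 CPM (SD, n = 4; -1.49 ± 0.18, edgeR adjusted p = 1.06e-07). Prom1, the stem cell antigen CD133, went against its list: it rose from 3.36 ± 0.91 to 30.8 ± 6.26 CPM in WT females (3.19 ± 0.24, edgeR adjusted p = 3.82e-11) and was at 0.81 ± 0.13 CPM in 60-day WT males. Its age change differed between the sexes, by -4.12 ± 0.43 in WT (edgeR adjusted p = 2.89e-07) and -4.69 ± 0.41 in KO (1.16e-08), in the direction of Mest and Peg3. Of 28 mature hepatocyte genes, 13 rose and 3 fell in WT females (median 0.30). The 3 that fell were Ahsg (-1.33 ± 0.10), Ttr (-0.91 ± 0.13) and Apoa1 (-1.33 ± 0.21), which encode plasma proteins. They went against most of the called genes of this list, and the 13 that rose are not named here. Of 14 glypicans and Wnt, Hedgehog or Notch genes tested, 2 rose and 2 fell in WT females, near the 16% and 17.1% of all genes. Among them were Ptch1 (0.72 ± 0.18) and Gpc4 (-0.23 ± 0.06).

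For each gene of the set, the 3 genes whose log2 CPM, less their own means, followed it most closely over the 32 libraries were found among 10511 candidates; this is a description of likeness only. Peg3 had the closest followers in units of log2: Camk1d, Alcam and Pcsk6, at root-mean-square differences of 0.27, 0.28 and 0.28, where Peg3 itself varied by 0.70. Alcam was at 171 and 178 CPM in 60-day WT and KO females and at 64.7 and 80.1 CPM in males (group means). Those of Mest were Syt12, Disp1 and Elovl6 (0.85 to 0.92, where Mest varied by 1.64), and Syt12 was at 13.4 and 15.8 CPM in 60-day females against 0.84 and 1.30 CPM in males. H19 was followed loosely by Ccnb1, Aqp7 and Rrm2 (1.80 to 1.87, where H19 varied by 3.90), of which Ccnb1 and Rrm2 belong to the cell cycle list. Grb10 was followed by Mcm4, also of that list, Col5a1 and Pxdn (0.32 to 0.34), and Gpc3 by Nbl1, Lpl and Itgbl1 (0.37 to 0.44). Cdkn1c was followed by Habp2, Lect2 and Stard8 (0.37 to 0.38), Igf2 by Pbx2, Rnf145 and Sntb2 (0.45 to 0.47, where Igf2 varied by only 0.57), and Afp by Steap2, Cpxm1 and Pctp (0.77 to 0.89). Of the 27 genes named this way, 20 were found again without the library that holds retina transcripts.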

How the data were processed

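The table of raw read counts per gene was deposited by the authors and names no annotation. STAR, Cufflinks, limma and the build Rnor_5.0 stand in the submitters' processing notes, with roles and versions not given in the sources used here. Per the labels' protocols, libraries were made with a stranded mRNA kit from Trizol RNA. Rows for unassigned reads (18.05% to 21.18% no feature, 0.262% to 0.648% ambiguous, of all reads in the table) were left out. Counts were filtered with filterByExpr (minimum 10), scaled by TMM and fitted in edgeR 4.0.16 (robust quasi-likelihood, 8 group means, 24 residual degrees of freedom). Only the age test in WT females was checked on simulated counts, drawn with the spread estimated in the same fit. Of changes of 1.5-fold, 2-fold and 4-fold, 58.2%, 92.5% and 93.9% were recovered, with 10 false calls among 10802 unchanged genes. The other comparisons were not simulated. Alternatives were limma-voom (limma 3.58.1), DESeq2 1.42.0, other scalings, filters and libraries. The authors' table of voom values was not used. The genes, lists and tests were chosen with earlier results of these data known. Named list genes were among the up to 4 with the smallest adjusted p in the comparison under discussion. Correlations used 100000 permutations within groups. Depth limits precision for genes near 1 CPM. Promoter and miRNA sequences are from RefSeq (GRCr8), and no coordinate was moved between builds.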

Additional observations from a re-analysis of the deposited data

Results flagged for a closer look

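In groups of 4 libraries, 7 gave a highest value far from the other 3 by Dixon's test at the 95% level; chance gives about 1 in 20, and 70 groups were looked at. H19 and Afp were both high in 30-day KO female replicate 2, at 278 and 25.9 CPM, and Afp was high in 30-day KO male replicate 1, at 56.2 CPM. H19 was highest in 60-day KO female replicate 2, at 1.61 CPM. Plagl1 was high in 30-day KO male replicate 4, at 2.20 CPM, the library of that group with the most Msln (23.6 CPM). Grb10 and Gpc3 were high in 60-day KO female replicate 1, at 5.85 and 3.75 CPM, the library that holds retina transcripts; its part in these values was not tested.

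The age changes of Mest and Peg3 differed between the sexes by the interaction test in edgeR: the change of males less that of females was -3.14 (WT) and -4.77 (KO) for Mest, and -1.35 (WT) and -1.05 (KO) for Peg3.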

How the results depend on the processing

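Over 43 other settings, gene results called by edgeR kept direction and call 1418 times and lost the call 63 times, and 0 reversed. Results not called gained a call 44 times. Of the 43 settings, 32 left out 1 library and so share nearly all their data with the main fit. The settings are therefore not independent checks. The number of called genes moved by over 1.5 times as follows, and by less elsewhere. Fitting only the 8 libraries compared gave 5 in place of 8 for age in WT females (Afp and Mest lost the call, and Plagl1 did not pass the filter), 0 in place of 1 for genotype in 60-day females, 2 in place of 1 for sex in 30-day KO and 3 in place of 5 for sex in 60-day KO. The 16 libraries of 1 age, an alternative added after seeing the data, gave 0 for genotype in 60-day females, 1 in place of 0 and 2 in place of 1 for sex in 30-day WT and KO, and 5 in place of 3 and 3 in place of 5 for sex in 60-day WT and KO. Upper-quartile scaling, limma-voom and DESeq2 each gave 1 for sex in 30-day WT, as did the title number as a covariate, an alternative added after seeing the data, and limma-voom and DESeq2 gave 2 in 30-day KO. Limma-voom gave 2 in place of 5 for age in KO males, and DESeq2 gave 3 in place of 0 for genotype in 30-day females and for age by genotype in females. Leaving out 1 library gave 3 to 5 for age in KO males, 0 to 3 for genotype in 30-day females, 0 to 1 in 60-day females, 0 to 1 and 1 to 2 for sex in 30-day WT and KO, 3 to 5 in 60-day KO and 0 to 1 for age by genotype in females. The cause was not tested. Library totals alone moved the share of called genes that were higher in KO from 39.4% to 59.3% in 30-day females, 50% to 85.7% in 30-day males and 26.1% to 47.1% in 60-day males, on 33 calls or fewer; upper-quartile scaling moved it to 26.1% in 30-day females, and to 61.4% from 47.9% for age by genotype in females. With library totals, the rise of Mest in WT females lost its call (0.96, edgeR adjusted p = 0.0737). Depth limits Dlk1, Plagl1 and H19 at 60 days most. No paired analysis was possible because replicate numbers follow accession order and match no animals between groups.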
